A study of Mus musculus with 6 samples.

Results

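Levels of RNA for the fibrillar collagens of types I, III and V and for the small matrix proteins that bind their fibrils were described in cochleae labelled Neu4 knockout and wild type. The 10 genes were Col1a1, Col1a2, Col3a1, Col5a1, Col5a2, Col5a3, Dpt, Dcn, Lum and Fmod. They were chosen by gene name, with the knockout and wild type values of these libraries already known, so the difference between the groups is given for them as a description and supports nothing. They are 10 of the 30462 genes of the deposited table, and all 10 were among the 14072 genes tested, those with at least 1 FPKM (fragments scaled to the exon length of the gene and the size of the library) in at least 3 libraries.

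RNA sequencing was used by the study to set the cochlea, the spiral organ of hearing, of mice with a mutated Neu4 gene against that of wild-type mice. The 3 libraries labelled Neu4 knockout (replicates 2, 4 and 5) and the 3 wild type libraries (replicates 3, 4 and 5) were from mice at postnatal day 7. The allele, the deleted part of the gene, the strain and any pooling of animals are not stated in the labels. Nor do the labels say that the libraries came from separate animals, so a p-value here reflects only the spread among the 6 libraries, part of which may be technical. The libraries held 15170973 to 17192293 fragments, as implied by the deposited values.

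Fibrillar collagen chains are made as procollagens, fold as trimers into a tight helix that needs glycine at regular steps along each chain, and are cut outside the cell before they pack into fibrils. Type I collagen is the bulk fibril of bone, tendon and connective tissue, type III shares fibrils with it in distensible tissues such as vessel walls, and type V starts fibrils and limits their width. Dermatopontin, decorin, lumican and fibromodulin bind the fibril surface and regulate fibril growth and spacing. In the cochlea, collagen fibrils are found in the bony capsule and in the connective tissue of the spiral ligament and spiral limbus.

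The 6 collagen genes share a coding feature that sets them apart from the 4 genes of fibril-binding proteins. In the longest coding transcript of each gene (GENCODE M21, GRCm38), the longest run of codon triplets that start with a glycine codon (GGN) was 338 triplets in Col1a1, 339 in Col1a2, 344 in Col3a1, 338 in Col5a1, 339 in Col5a2 and 337 in Col5a3. It was 3 in Dpt, 1 in Dcn, 2 in Lum and 1 in Fmod, against a median of 2 over 18065 genes. A run of at least 300 was found in 9 genes, and the others were Col2a1, Col11a1 and Col11a2, chains of the cartilage collagens. Coding exons of exactly 54 bases, the length of 6 such triplets, made up 41.2% (Col1a1) to 47.1% (Col3a1) of the coding exons of the 6 collagen genes. They made up 0.705% of the 187170 coding exons of all genes. These exons were counted by length alone, and their triplets were read only in the printed exons. Such exons are printed for 4 chains, from genes whose knockout and wild type values overlapped (Col1a2, Col5a3) and did not (Col3a1, Col5a1), to show the shared repeat. Each is 5′ to 3′ in the gene's own strand, with the glycine codon that opens each triplet in capitals, and they are coding exon 6 of Col3a1 (chr1:45325360-45325413, plus strand), exon 15 of Col5a1 (chr2:27965251-27965304, plus strand), exon 8 of Col1a2 (chr6:4515481-4515534, plus strand) and exon 15 of Col5a3 (chr9:20801068-20801121, minus strand).
Col3a1: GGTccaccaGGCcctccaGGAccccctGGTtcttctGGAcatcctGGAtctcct
Col5a1: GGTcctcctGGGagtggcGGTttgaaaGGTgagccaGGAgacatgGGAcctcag
Col1a2: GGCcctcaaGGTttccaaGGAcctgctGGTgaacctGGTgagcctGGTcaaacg
Col5a3: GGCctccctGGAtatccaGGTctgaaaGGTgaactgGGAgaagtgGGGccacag
In all 4 exons each of the 6 triplets opens with a glycine codon, while the chains share only some of the other codons, and Col5a1 has a further glycine codon inside a triplet.

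Promoters are shown for genes whose groups stood apart without overlap (Col3a1, Col5a1, Dpt) and for Col1a2, whose groups overlapped. The windows are the 150 bases before the RefSeq start of each gene (GRCm38.p6), for which 6 of the 10 genes had an entry, all but Col1a1, Col5a2, Dcn and Lum. The motifs searched on both strands were the CCAAT box with the letters CCAAT, the TATA box with the letters TATAAA, and the GC box with the letters GGGCGG, and no match overlapped another. Of 32851 promoter windows of this length, 24.5% held CCAAT, 7.57% held TATAAA and 28.6% held GGGCGG. The printed windows are those of Col3a1 (chr1:45311388-45311537, plus strand), Col5a1 (chr2:27886275-27886424, plus strand), Dpt (chr1:164796513-164796662, plus strand) and Col1a2 (chr6:4505468-4505617, plus strand), with motif matches in capitals.
Col3a1: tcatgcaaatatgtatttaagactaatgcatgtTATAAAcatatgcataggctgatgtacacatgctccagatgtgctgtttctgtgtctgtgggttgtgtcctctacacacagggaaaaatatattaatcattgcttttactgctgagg
Col5a1: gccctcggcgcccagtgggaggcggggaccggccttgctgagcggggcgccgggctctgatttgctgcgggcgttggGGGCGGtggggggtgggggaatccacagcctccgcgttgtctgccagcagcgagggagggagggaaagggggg
Dpt: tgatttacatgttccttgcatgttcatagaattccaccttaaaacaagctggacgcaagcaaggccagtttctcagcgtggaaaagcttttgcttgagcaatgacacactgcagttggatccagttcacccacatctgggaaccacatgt
Col1a2: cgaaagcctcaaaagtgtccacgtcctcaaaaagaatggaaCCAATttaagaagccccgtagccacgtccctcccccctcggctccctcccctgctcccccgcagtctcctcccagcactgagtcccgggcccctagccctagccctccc
Col3a1 had TATAAA at 117 to 112 bases before the start, Col5a1 had GGGCGG at 73 to 68 bases, and Col1a2 had CCAAT at 109 to 105 bases. Col5a3 (not printed) had CCAAT at 122 to 118 bases and GGGCGG on the minus strand at 63 to 58 and 41 to 36 bases. Dpt and Fmod held none of these letters in the window. The windows also differed in base composition, with 37.3% G and C in Col3a1, 45.3% in Dpt, 49.3% in Fmod, 62.7% in Col1a2, 68.7% in Col5a3 and 74.7% in Col5a1, against a median of 54% over all windows.

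The targeted gene, Neu4, which encodes a sialidase, was close to absent from both groups. Neu4 (chr1:94020451-94028334) had 0.0518, 0.102 and 0.0853 FPKM in the libraries labelled knockout 2, 4 and 5, against 0.0523, 0.1004 and 0.0810 FPKM in wild type 3, 4 and 5. These values stand for 4, 8 and 6 fragments in the libraries labelled knockout and for 4, 8 and 6 in wild type (exact two-sided permutation p = 0.8, the smallest possible for 3 against 3 being 0.1). The labels could thus not be checked from Neu4 RNA, and "knockout" means a library labelled so. Defining genes of the organ of Corti were present, with Tectb, a protein of the tectorial membrane, at 111 ± 9.39 FPKM in knockout and 95.2 ± 1.21 FPKM in wild type (SD, n = 3 each), and Gjb2, the gap junction protein connexin 26, at 72.5 ± 4.61 and 61.9 ± 2.65 FPKM. Slc26a5, the motor protein of outer hair cells, was at most 0.215 FPKM in any library and listed at 0 in knockout 4.

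The 10 genes differed widely in level, here in FPKM, which is divided by all exon bases of a gene. That length can be larger than the longest coding transcript, with 5838 against 1758 bases for Dcn but 2448 for both in Lum. The order given here thus holds for FPKM and depends on the lengths used. Col1a1 was the most abundant with 3707 ± 529 FPKM over the 6 libraries (SD), place 3 among protein-coding genes, and Col1a2 followed with 1569 ± 112 FPKM, place 11. Col3a1 (291.6 ± 72.6 FPKM) and Lum (236.6 ± 19.6 FPKM) came next and were in that order in 4 of 6 libraries. Col5a2 (171.7 ± 8.42 FPKM) and Fmod (167.0 ± 10.6 FPKM) could not be ordered, and neither could Col5a1 (95.9 ± 11.7 FPKM) and Dcn (89.1 ± 9.05 FPKM), nor Dpt (12.2 ± 5.98 FPKM) and Col5a3 (8.65 ± 1.45 FPKM), since their ranges overlapped. All other neighbours in this order kept it in 6 of 6 libraries. The 10 genes together took 4.31% to 5.30% of the fragments of a knockout library and 4.91% to 5.68% of a wild type library. Most of that was the pair of collagen I genes, with 3.61% to 4.70% in knockout and 4.14% to 4.89% in wild type. The other 8 genes took 0.602% to 0.705% in knockout and 0.769% to 0.790% in wild type, ranges that did not overlap.

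Between the groups, 0 of the 10 genes passed the test over all genes (limma, Benjamini-Hochberg adjusted p from 0.0745 to 0.954), in which 47 of 14072 genes (0.334%) did, 18 higher and 29 lower in knockout (11 higher and 33 lower with median-ratio scaling). At an unadjusted p under 0.05 there were 4 of the 10, all lower in knockout (Col3a1, Col5a1, Dpt and Lum), beside 6.99% of all tested genes that were lower at that level. The same 4 had all 3 knockout libraries below all 3 wild type libraries, as did 9.54% of all tested genes, and none had them all above. With voom (limma) on recovered fragments, Col3a1 (adjusted p = 0.0271) and Dpt (adjusted p = 0.0441) passed, in a test that called 2.82% of 13796 genes and left out Col5a1. The log2 fold change, knockout minus wild type on the log2(FPKM + 1) scale, was below 0 in 9 of the 10 genes, the exception being Col5a2, with a median of -0.20 beside 0.02 over all tested genes, of which 43.1% were below 0. Nothing is read from these counts, since the genes were picked with this contrast known. In bulk tissue, fewer cells of a type and less RNA per cell cannot be told apart.

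**Figure D1:**
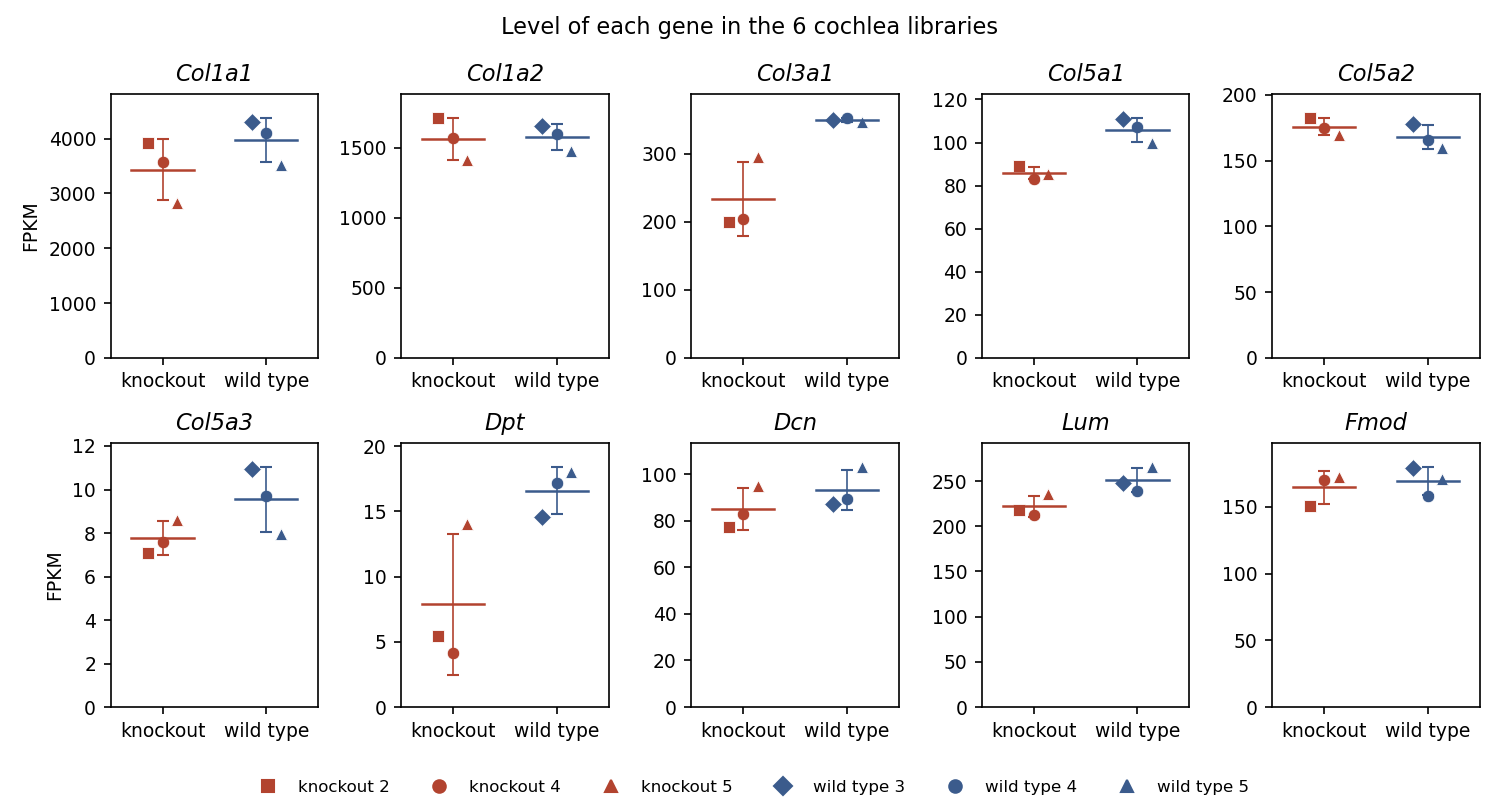
FPKM (vertical axes, from 0) of each of the 10 genes in the 3 knockout and 3 wild type libraries, with horizontal lines for group means and bars for the SD. The knockout points of Col3a1, Col5a1, Dpt and Lum all sit below the wild type points, and in Col3a1 and Dpt knockout 5 lies nearest to wild type.

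Type I collagen is built from a pair of chains from Col1a1 and a chain from Col1a2. Col1a1 (chr11:94936224-94953042, plus strand) had 3916, 3569.7 and 2821 FPKM in knockout 2, 4 and 5, against 4306, 4105 and 3522 FPKM in wild type 3, 4 and 5. The groups overlapped, because knockout 2 and knockout 4 lay above wild type 5. The means were 3436 ± 559 FPKM in knockout and 3978 ± 407 FPKM in wild type (SD, n = 3 each), a log2 fold change of -0.22 ± 0.14 (SE, limma, adjusted p = 0.456).

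Col1a2 (chr6:4504814-4541544, plus strand) had 1712, 1569 and 1410.4 FPKM in knockout 2, 4 and 5, against 1656, 1595 and 1473 FPKM in wild type 3, 4 and 5. Knockout 2 was the highest and knockout 5 the lowest of the 6, so the wild type range fell inside that of knockout. The log2 fold change was -0.013 ± 0.088 (SE, limma, adjusted p = 0.954), and its sign turned to 0.061 with quantile normalization, to 0.044 with sex as a covariate, to 0.059 without knockout 5 and to 0.024 without wild type 3. Neither chain passed the test. The FPKM ratio of Col1a1 to Col1a2 was 2.29, 2.27 and 2.00 in knockout 2, 4 and 5, against 2.60, 2.57 and 2.39 in wild type 3, 4 and 5, so every knockout library lay below every wild type library. No test was made of this ratio. Its absolute size depends on the lengths used, since the table counts 6563 exon bases for Col1a1 and 12426 for Col1a2, of which the longest coding transcript holds 5930 and 5348. As fragments per base of those transcripts the ratio was 0.953 to 1.09 in knockout and 1.14 to 1.24 in wild type.

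Type III collagen has 3 copies of the Col3a1 chain. Col3a1 (chr1:45311538-45349706, plus strand) had 199.99, 203.9 and 295.8 FPKM in knockout 2, 4 and 5, against 349.9, 353.4 and 346.8 FPKM in wild type 3, 4 and 5. Wild type libraries were nearly level, knockout 2 and 4 were lower by a similar amount, and knockout 5 lay between them and wild type without reaching it. The means were 233 ± 54.2 FPKM in knockout and 350.0 ± 3.30 FPKM in wild type (SD, n = 3 each), a ratio of 0.666 and a log2 fold change of -0.61 ± 0.14 (SE, limma, adjusted p = 0.125). Without knockout 5 the log2 fold change was -0.79 and the adjusted p 0.00176, in a fit that called 105 genes (0.746% of those tested). Over the 17 other settings the log2 fold change was between -0.79 and -0.51, and the adjusted p between 0.00176 and 0.336.

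Type V collagen in most tissues joins a pair of Col5a1 chains with a Col5a2 chain, and a Col5a3 chain can take part in some tissues. Col5a1 (chr2:27886425-28039514, plus strand) had 88.9, 83.3 and 85.4 FPKM in knockout 2, 4 and 5, against 110.9, 107.3 and 99.8 FPKM in wild type 3, 4 and 5. The highest knockout library lay below the lowest wild type library, and the 3 knockout values were close together. The means were 85.9 ± 2.82 FPKM in knockout and 106.0 ± 5.66 FPKM in wild type (SD, n = 3 each), a ratio of 0.810 and a log2 fold change of -0.30 ± 0.05 (SE, limma, adjusted p = 0.0745). Col5a1 had the lowest adjusted p of the 10 genes, and passed with a filter of at least 5 FPKM (adjusted p = 0.0456) and with library weights (adjusted p = 0.0431), over a range of 0.0431 to 0.263 in the 16 settings it entered.

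Col5a2 (chr1:45374321-45503282, minus strand) had 182.8, 174.9 and 169.6 FPKM in knockout 2, 4 and 5, against 177.7, 165.5 and 159.8 FPKM in wild type 3, 4 and 5. The groups overlapped widely, and the log2 fold change was 0.068 ± 0.054 (SE, limma, adjusted p = 0.544). The FPKM ratio of Col5a1 to Col5a2 was 0.486, 0.476 and 0.504 in knockout 2, 4 and 5, against 0.624, 0.648 and 0.624 in wild type 3, 4 and 5. The ratio means were 0.489 ± 0.0140 in knockout and 0.632 ± 0.0139 in wild type (SD, n = 3 each), and the distance between the groups was several times the spread within them, which is a description without a test. The absolute size of this ratio too depends on the lengths used. Col5a2 has 9591 exon bases and a longest coding transcript of 6625, and the length behind the Col5a1 values was not recovered.

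Col5a3 (chr9:20770050-20815067, minus strand) was the rarest chain. It had 7.06, 7.60 and 8.62 FPKM in knockout 2, 4 and 5, against 10.96, 9.70 and 7.97 FPKM in wild type 3, 4 and 5. Knockout 5 lay above wild type 5, so the groups overlapped, and the log2 fold change was -0.26 ± 0.11 (SE, limma, adjusted p = 0.293). The FPKM ratio of Col5a3 to Col5a2 overlapped too, with 0.0386 to 0.0508 in knockout and 0.0499 to 0.0617 in wild type.

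**Figure D2:**
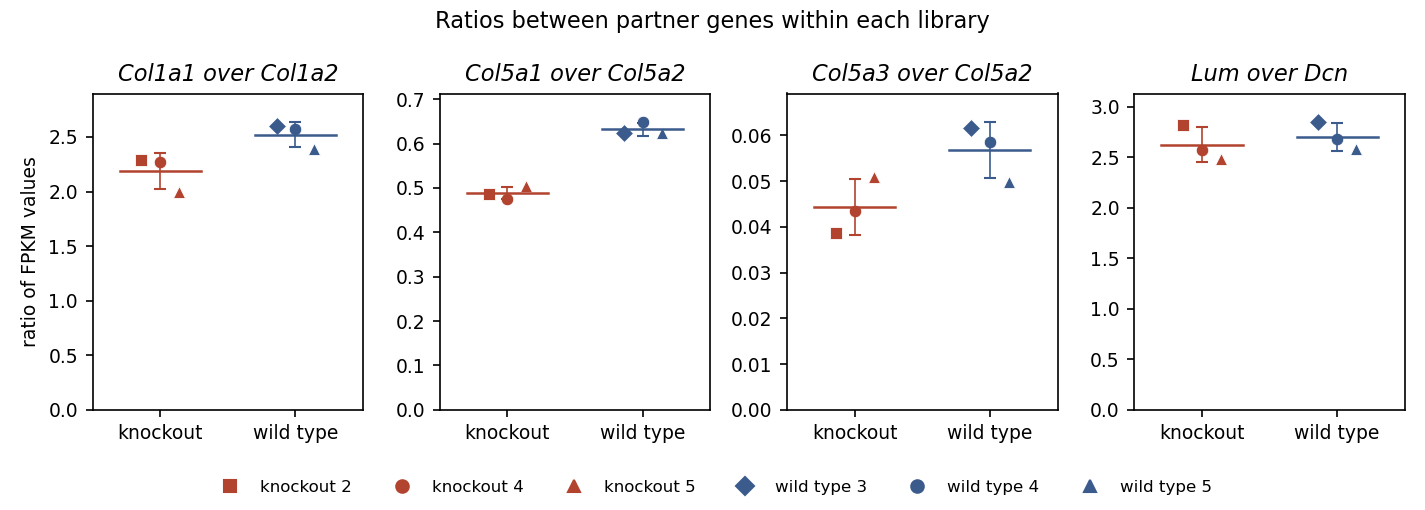
Ratios of FPKM between pairs of the genes (vertical axes, from 0) in each library, with lines for group means and bars for the SD. The ratios of Col1a1 to Col1a2 and of Col5a1 to Col5a2 are lower in all 3 knockout libraries than in all 3 wild type libraries.

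Col3a1 and Col5a2 are neighbours on chromosome 1, on opposite strands and 24.6 kb apart, and only Col3a1 had groups that did not overlap. Their FPKM ratio, a pair chosen after the values were seen, was 1.09, 1.17 and 1.74 in knockout 2, 4 and 5, against 1.97, 2.14 and 2.17 in wild type 3, 4 and 5.

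Dermatopontin, from Dpt (chr1:164796644-164824266, plus strand), is a small protein that binds decorin and promotes fibril formation. Dpt had 5.43, 4.15 and 14.03 FPKM in knockout 2, 4 and 5, against 14.55, 17.21 and 18.04 FPKM in wild type 3, 4 and 5, from 121 to 367 fragments per knockout library and 414 to 510 per wild type library. Knockout 2 and 4 were far below wild type, and knockout 5 was just below the lowest wild type library. The means were 7.87 ± 5.37 FPKM in knockout and 16.6 ± 1.82 FPKM in wild type (SD, n = 3 each), a ratio of 0.474 and a log2 fold change of -1.15 ± 0.36 (SE, limma, adjusted p = 0.180), the widest of the 10 genes. Without knockout 5 the log2 fold change was -1.61 and the adjusted p 0.00749, and over the 17 other settings the adjusted p lay between 0.00749 and 0.378.

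Decorin, lumican and fibromodulin are small leucine-rich proteoglycans that bind collagen and limit the sideways growth of fibrils. Lum (chr10:97565128-97572703, plus strand) had 218.3, 212.5 and 235.4 FPKM in knockout 2, 4 and 5, against 248.3, 239.0 and 265.9 FPKM in wild type 3, 4 and 5. All knockout values lay below all wild type values, by a narrow margin between knockout 5 and wild type 4, and the log2 fold change was -0.18 ± 0.06 (SE, limma, adjusted p = 0.202). Dcn (chr10:97479609-97518143, plus strand) had 77.5, 82.7 and 94.9 FPKM in knockout 2, 4 and 5, against 87.3, 89.3 and 103.1 FPKM in wild type 3, 4 and 5. Knockout 5 exceeded wild type 3 and 4, so the groups overlapped, with a log2 fold change of -0.13 ± 0.09 (SE, adjusted p = 0.485). Dcn and Lum lie 47.0 kb apart on the same strand, and their FPKM ratio, Lum over Dcn, overlapped between the groups, with 2.48 to 2.82 in knockout and 2.58 to 2.84 in wild type. The absolute size of this ratio depends on the lengths used and does not rank the 2 RNAs. The exon bases counted are 2448 for Lum and 5838 for Dcn, and the longest coding transcripts hold 2448 and 1758.

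Fmod (chr1:134037254-134048277, plus strand) had 150.6, 170.4 and 172.7 FPKM in knockout 2, 4 and 5, against 179.3, 158.0 and 170.9 FPKM in wild type 3, 4 and 5. The groups overlapped and the log2 fold change was -0.042 ± 0.070 (SE, limma, adjusted p = 0.792), with its sign turned to 0.062 under the replicate block and to 0.020 without knockout 2.

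Within the groups, some genes had their highest and lowest libraries in common. Col1a1, Col1a2 and Col5a2 were highest in knockout 2 and wild type 3 and lowest in knockout 5 and wild type 5, with Col1a1 0.27 below its group mean in knockout 5 and 0.17 below in wild type 5 on the log2 scale. Dpt, Dcn and Lum were highest in knockout 5 and wild type 5, with Dcn 0.16 and 0.15 above its group means. Col3a1 went with the second set in knockout, at 0.37 above its group mean in knockout 5, whereas its wild type values lay between -0.013 and 0.014 of theirs. Dpt varied most, from -0.62 in knockout 4 to 0.92 in knockout 5.

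**Figure D3:**
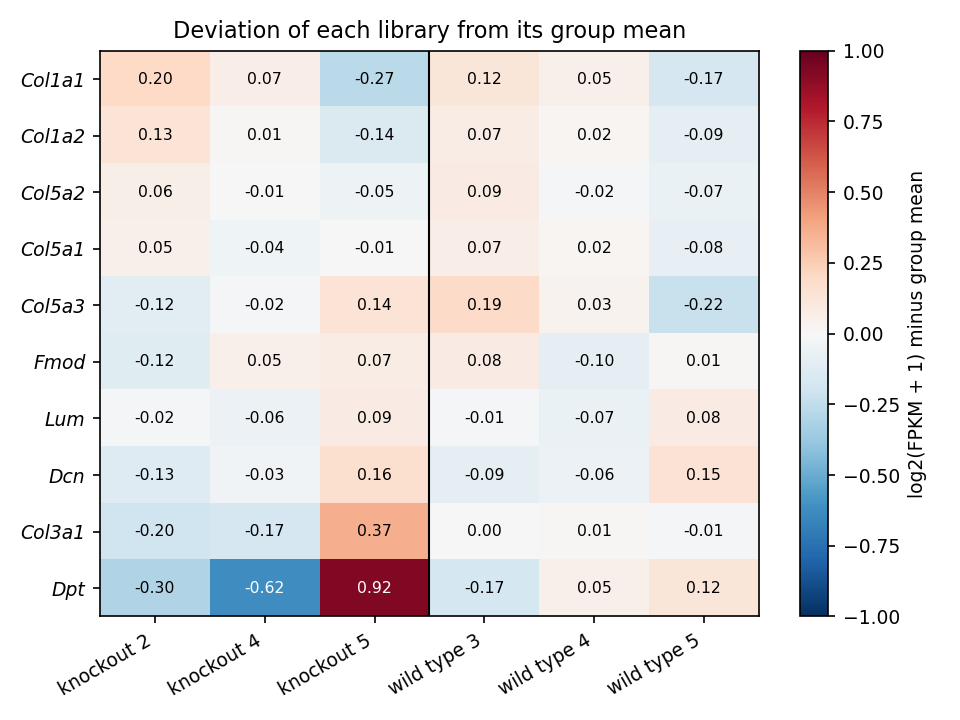
Deviation of each gene (rows) in each library (columns, knockout left of wild type) from the mean of its own group, on the log2(FPKM + 1) scale, by colour and number. Col1a1 and Col1a2 are below their group means in knockout 5 and wild type 5, and Dpt (0.92) and Col3a1 (0.37) stand out in knockout 5.

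The sexes were unequal between the groups, as read from Xist and Ddx3y: knockout 2 and wild type 3 and 4 were male, and knockout 4 and 5 and wild type 5 were female. The log2 difference of Col3a1, knockout minus wild type, was -0.81 among males (1 library against 2) and -0.50 among females (2 against 1). For Dpt it was -1.39 among males and -1.11 among females, for Col5a1 -0.29 and -0.24, and for Lum -0.16 and -0.25. These 4 genes were lower in knockout within both sexes. That had to be so, since all their knockout values lay below all their wild type values. There were too few libraries for a test. Dcn and Col1a1, whose groups overlapped, were also lower in knockout within both sexes. This did not hold for Col5a3, at -0.49 among males and 0.02 among females, or for Fmod, at -0.16 and 0.0059. Col1a2 and Col5a2 were above 0 in both sexes.

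Genes that act on or beside these collagens were read from the same fit in 8 lists, which hold 102 tested genes outside the 10. Of these, 0 rose and 2 fell in knockout, with a median log2 fold change of 0.01. Both that fell belong to the list of matrix proteins of fibril assembly (15 tested, median -0.11). Col6a2, a chain of the beaded type VI collagen, averaged 82.8 ± 2.73 FPKM in knockout and 107.0 ± 3.74 FPKM in wild type (SD, n = 3 each), with a log2 fold change of -0.37 ± 0.04 (SE, limma, adjusted p = 0.0406). Fbln1, the matrix glycoprotein fibulin 1, averaged 13.4 ± 1.00 FPKM in knockout and 19.4 ± 0.763 FPKM in wild type, with a log2 fold change of -0.51 ± 0.06 (adjusted p = 0.0407). Both calls were kept when knockout 5 was left out and lost when any of the other 5 libraries was, and the adjusted p over all 17 other settings was 0.00588 to 0.230 for Col6a2 and 0.00593 to 0.155 for Fbln1. At an unadjusted p under 0.05 there were 33 of the 102 genes, 12 higher and 21 lower, beside 17.6% of all tested genes, 10.6% higher and 6.99% lower. With voom 13 of the genes passed, beside 2.82% of all genes in that test. Besides Col6a2 and Fbln1 these were Col16a1, Loxl1, Aspn, Col6a1, Vcan and Ltbp4, with a lower mean FPKM in knockout. The rest were Col11a1, Col24a1, Colgalt2, Loxl4 and Itga2, with a higher mean FPKM in knockout.

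The other fibrillar collagens, those of cartilage and 2 minor ones, had a median log2 fold change of 0.12, and 1 of 5 was below 0 (43.1% of all tested genes were). None passed, and 2 were higher at an unadjusted p under 0.05. Col2a1, the chain of cartilage type II collagen, averaged 1821 ± 209 FPKM in knockout and 1904 ± 155 FPKM in wild type, and Col11a2, a chain of type XI, 853 ± 64.3 and 784 ± 44.2 FPKM (SD, n = 3 each). None of the fibril-associated collagens passed (8 tested, median 0.02, 2 lower at an unadjusted p under 0.05), with Col9a2 at 600 ± 43.5 FPKM in knockout and 573 ± 35.0 FPKM in wild type and Col9a1 at 532 ± 45.4 and 486 ± 24.2 FPKM. Both are chains of type IX collagen, which coats cartilage fibrils.

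None of the 20 genes for folding and modifying procollagen passed (median 0.01, 2 higher and 4 lower at an unadjusted p under 0.05). Serpinh1, the collagen chaperone HSP47, averaged 848 ± 1.95 FPKM in knockout and 936 ± 33.0 FPKM in wild type (log2 fold change -0.14, limma, adjusted p = 0.220), and P4hb, a subunit of prolyl 4-hydroxylase, 378 ± 6.45 and 394 ± 9.56 FPKM (SD, n = 3 each). In cleavage and cross-linking (12 tested, median 0.03, none passed, 2 higher and 1 lower at an unadjusted p under 0.05), Pcolce, an enhancer of procollagen cleavage, averaged 117 ± 2.12 FPKM in knockout and 126 ± 5.74 FPKM in wild type, and Lox, the cross-linking lysyl oxidase, 101 ± 2.25 and 90.6 ± 1.13 FPKM. The knockout and wild type values of these 4 genes did not overlap, with Lox higher in knockout (15.2% of all tested genes were higher without overlap) and the others lower (9.54%).

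Among the other small leucine-rich proteoglycans (11 tested, median -0.05, none passed, 2 lower at an unadjusted p under 0.05), Bgn, biglycan, averaged 279 ± 7.06 FPKM in knockout and 289 ± 8.39 FPKM in wild type, and Chad, chondroadherin, 208 ± 40.8 and 195 ± 9.61 FPKM (SD, n = 3 each). Among collagen receptors and enzymes of breakdown (15 tested, median 0.07, none passed, 4 higher at an unadjusted p under 0.05), Ctsk, cathepsin K of bone-resorbing cells, averaged 1498 ± 66.5 FPKM in knockout and 1441 ± 70.9 FPKM in wild type, and Mmp9, a gelatinase, 1162 ± 96.5 and 1121 ± 40.5 FPKM. In TGF-beta signalling, which induces collagen genes in fibroblasts (16 tested, median 0.01, none passed, 1 higher and 5 lower at an unadjusted p under 0.05), Ltbp3 averaged 71.3 ± 2.07 FPKM in knockout and 77.2 ± 1.62 FPKM in wild type, and Ltbp4 32.9 ± 4.78 and 51.9 ± 5.26 FPKM. Both encode proteins that bind latent TGF-beta, and for Ltbp4 the log2 fold change was -0.65 ± 0.11 (SE, limma, adjusted p = 0.0745).

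**Figure D4:**
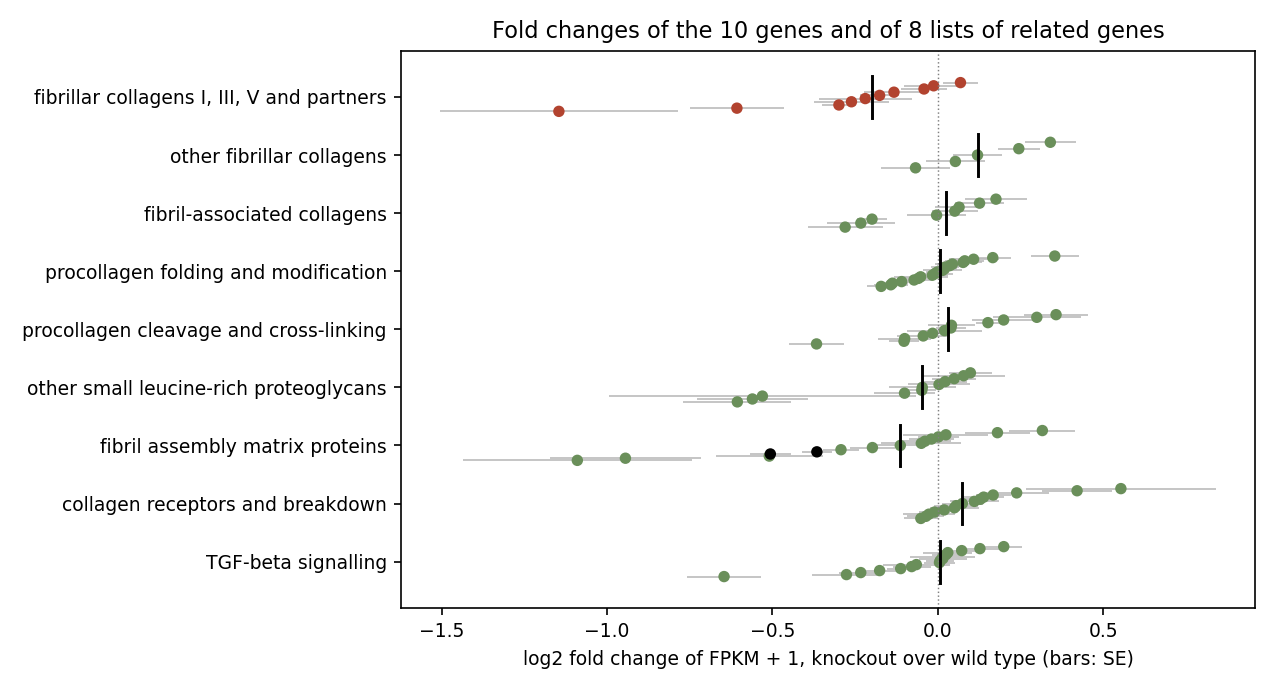
Log2 fold changes, knockout minus wild type on the log2(FPKM + 1) scale, of the 10 genes and of the tested genes of 8 lists, 1 point per gene with its SE as a grey bar, the 10 genes in red, and a vertical tick at each median. Black points mark the genes that passed the test, Col6a2 and Fbln1, and the medians run from -0.20 for the 10 genes to 0.12 for the other fibrillar collagens.

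Without knockout 5, the library in which Col3a1 and Dpt were nearest to wild type, 10 of the 102 genes passed, in place of 2, in a fit that called 0.746% of all tested genes in place of 0.334%. Without any of the other 5 libraries 0 of the 102 passed. The 10 that passed without knockout 5 were Col6a1, Col6a2, Fbln1, Aspn, Col14a1, Ltbp4, Postn, Tnxb and Vcan, all lower in knockout, and Loxl4, a lysyl oxidase, higher. Some of these are shown by library, chosen after their values were seen. Postn, periostin, a protein of collagen-rich connective tissue, had 25.1, 23.9 and 65.8 FPKM in knockout 2, 4 and 5, against 71.2, 75.3 and 75.1 FPKM in wild type 3, 4 and 5. Aspn, asporin, a relative of decorin, had 31.3, 30.6 and 48.9 FPKM in knockout 2, 4 and 5, against 55.7, 54.98 and 55.7 FPKM in wild type 3, 4 and 5. In both genes knockout 5 stood nearer to wild type than the other knockout libraries, as in Col3a1 and Dpt, which also passed without knockout 5. Genes taken because they pass without knockout 5 are favoured to have this arrangement, so nothing is read from it.

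Of the marker lists of cell types that make or border collagen matrix, some had sums that overlapped between the groups and some did not, and their part in the results was not tested. Summed FPKM of 12 fibroblast markers was 165, 159 and 179 in knockout 2, 4 and 5, against 177, 190.0 and 179.7 in wild type 3, 4 and 5, which overlapped. Of 11 tested markers 0 passed (limma). At an unadjusted p under 0.05, 1 was higher and 3 were lower, beside 10.6% and 6.99% of all tested genes. Those lower were Cd34 (log2 fold change -0.40, groups without overlap), Mfap5 (-0.87) and Pi16 (-0.84), and Dpp4 (0.25) was higher. The 2 most abundant fibroblast markers were Pdgfrb, with 50.4 ± 3.35 FPKM in knockout and 53.5 ± 3.21 FPKM in wild type (SD, n = 3 each), and Twist1, with 32.1 ± 3.37 and 35.7 ± 2.34 FPKM. Osteoblast markers, which mark the bone cells that secrete type I collagen, were higher in knockout, with a summed FPKM of 5463 to 6770 in knockout and 5026 to 5291 in wild type. All 12 had a log2 fold change above 0, as did 56.9% of all tested genes. None passed, and 7 were higher at an unadjusted p under 0.05, beside 10.6% of all tested genes, with Ibsp, bone sialoprotein, at 3061 ± 373 FPKM in knockout and 2512 ± 155 FPKM in wild type, and Spp1, osteopontin, at 1168 ± 54.4 and 1038 ± 41.9 FPKM.

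Markers of the spiral ligament and otic mesenchyme were higher too, with a summed FPKM of 518 to 571 in knockout and 434 to 462 in wild type, with 7 of 7 above 0 (56.9% of all tested genes were), 0 passed and 5 higher at an unadjusted p under 0.05 (10.6% of all tested genes). Car3 averaged 344 ± 22.9 FPKM in knockout and 292 ± 14.4 FPKM in wild type, and Pou3f4, a transcription factor of the otic mesenchyme, 94.1 ± 4.37 and 78.5 ± 1.38 FPKM (SD, n = 3 each). Markers of cochlear hair and supporting cells summed to 218 to 245 FPKM in knockout and 201 to 205 FPKM in wild type, with Tectb and Gjb2 the highest. Of 7 tested, 6 were above 0 (56.9% of all tested genes were) and 0 passed. At an unadjusted p under 0.05 (limma), 4 were higher (10.6% of all tested genes) and 1 was lower (6.99%). The lower gene was Sox2, with a log2 fold change of -0.26 and groups without overlap. Tendon markers summed to 69.2 to 73.4 FPKM in knockout and 73.5 to 75.8 FPKM in wild type, but 4 of 5 had a log2 fold change above 0, as did 56.9% of all tested genes. Egr1, the most abundant and the exception, averaged 38.7 ± 2.43 FPKM in knockout and 47.4 ± 4.81 FPKM in wild type, and Tnmd, tenomodulin, 19.2 ± 2.59 and 14.2 ± 2.04 FPKM. Chondrocyte markers (2334 to 2692 FPKM in knockout, 2257 to 2378 FPKM in wild type) and markers of meninges and nerve sheath (76.2 to 86.0 FPKM in knockout, 80.6 to 84.3 FPKM in wild type) overlapped. Among them Col10a1, a collagen of hypertrophic cartilage, averaged 975 ± 211 FPKM in knockout and 796 ± 73.2 FPKM in wild type, and Matn1 508 ± 103 and 566 ± 61.4 FPKM. Foxc1 averaged 36.5 ± 2.12 FPKM in knockout and 35.4 ± 1.28 FPKM in wild type, and Aldh1a2 15.5 ± 0.626 and 15.5 ± 1.17 FPKM.

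Marker lists of middle ear epithelium, smooth muscle, adipocytes and skeletal muscle were mostly lower in knockout. Middle ear epithelium markers summed to 2.65, 11.8 and 96.7 FPKM in knockout 2, 4 and 5, against 383, 726 and 407 FPKM in wild type 3, 4 and 5, with Scgb3a2 listed at 0 in knockout 2. Bpifa1, a secreted protein of airway lining, averaged 33.9 ± 51.6 FPKM in knockout and 449 ± 142 FPKM in wild type (SD, n = 3 each), and Bpifb1 had 0.229 to 0.237 FPKM in knockout, against 27.2, 84.9 and 0.190 FPKM in wild type 3, 4 and 5, which overlapped. In the sum of the list, knockout 5 was the knockout library nearest to wild type, through Bpifa1, with 0.0777, 8.34 and 93.3 FPKM in knockout 2, 4 and 5. The other markers of the list did not set knockout 5 apart, with Foxj1 at 2.22, 2.95 and 2.97 FPKM in the same libraries. Smooth muscle markers summed to 50.5 to 77.8 FPKM in knockout and 104 to 149 FPKM in wild type, and Actg2, an actin of visceral muscle, fell by 1.07 on the log2 scale (SE 0.14, limma, adjusted p = 0.0425), at 3.72 ± 0.504 FPKM in knockout and 8.96 ± 1.69 FPKM in wild type (SD, n = 3 each). Acta2, the smooth muscle actin, averaged 48.0 ± 9.97 FPKM in knockout and 92.8 ± 15.4 FPKM in wild type, and Des, desmin, 9.31 ± 4.44 and 14.5 ± 7.95 FPKM. Adipocyte markers summed to 7.29 to 14.4 FPKM in knockout and 17.8 to 35.0 FPKM in wild type, with Fabp4 at 6.96 ± 2.37 FPKM in knockout and 12.0 ± 4.49 FPKM in wild type and Pparg at 2.46 ± 0.406 and 2.49 ± 0.680 FPKM. Skeletal muscle markers overlapped, at 30.3 to 254 FPKM in knockout and 142 to 628 FPKM in wild type, with 8 of 8 below 0, 0 passed and 0 at an unadjusted p under 0.05. Acta1, the skeletal muscle actin, averaged 95.9 ± 70.0 FPKM in knockout and 183 ± 125 FPKM in wild type, and Mylpf 24.3 ± 17.0 and 48.8 ± 39.8 FPKM.

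**Figure D5:**
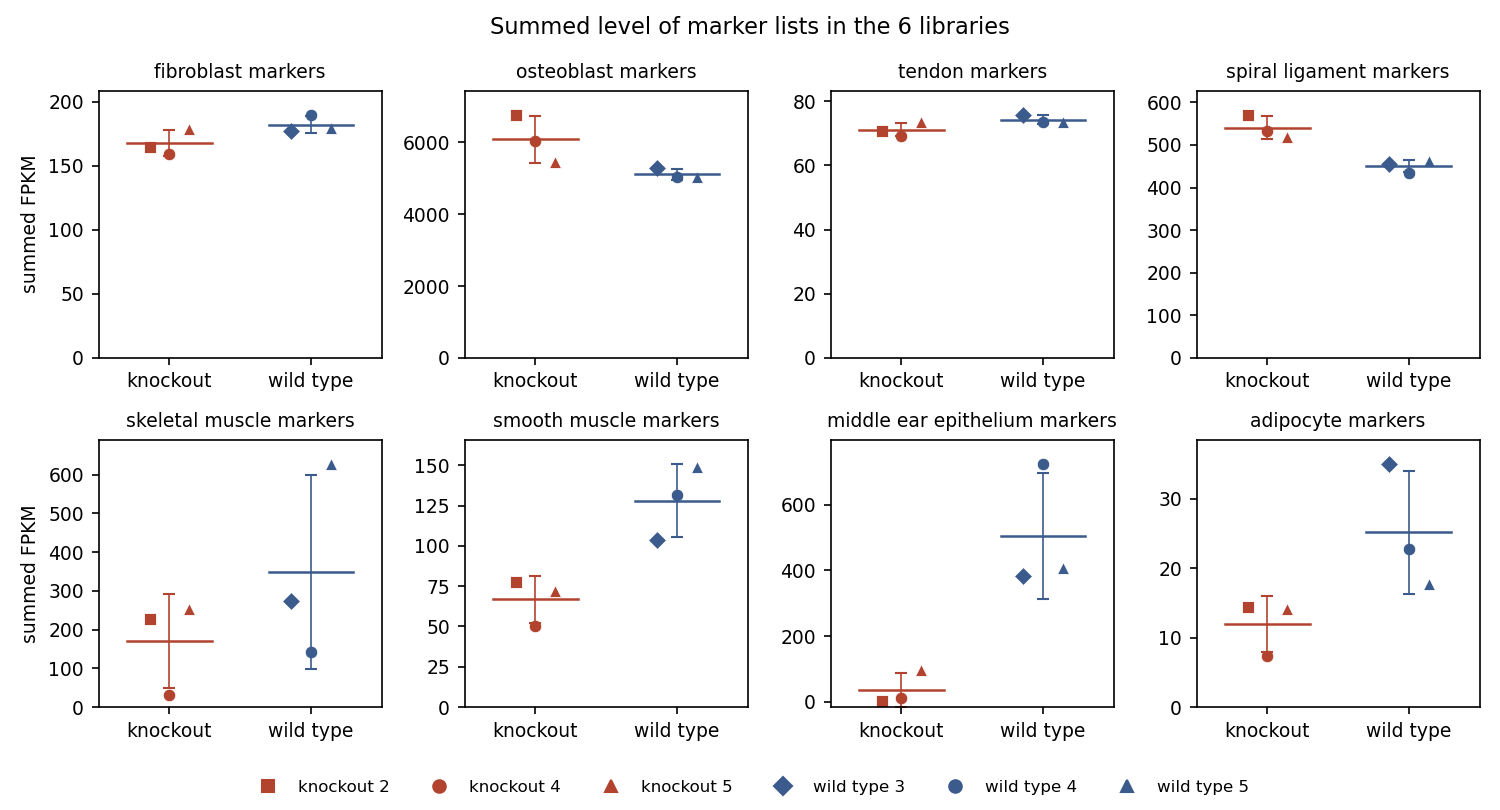
Summed FPKM of 8 marker lists (vertical axes) in each library, with lines for group means and bars for the SD. Osteoblast and spiral ligament markers are higher in all knockout libraries, smooth muscle, middle ear and adipocyte markers are lower in all of them, and fibroblast and skeletal muscle markers overlap.

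The genes whose profile over the 6 libraries was most like the mean standardised profile of the 10 genes, among 5028 others with a mean of at least 10 FPKM, were Lpcat1 (Pearson r = 0.991), Txlna (r = 0.990), Ephb3 (r = 0.987), Gm5805 (r = 0.986) and Gm28437 (r = 0.984). The 6 points include both groups, and the r values are descriptions. Each of these 5 genes was lower in all 3 knockout libraries than in all 3 wild type libraries, as were 9.54% of all tested genes, and none passed the test. The mean profile was itself below 0 in all 3 knockout libraries and above 0 in all 3 wild type libraries. Genes picked for likeness to it were thus favoured to stand apart in this way. Lpcat1 had 17.7, 17.6 and 18.0 FPKM in knockout 2, 4 and 5, against 19.2, 18.6 and 18.3 FPKM in wild type 3, 4 and 5, a narrow difference.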

How the data were processed

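RNA of 6 cochlea samples was sequenced. The authors deposited 1 table of FPKM values with a column per library. Coordinates refer to GRCm38, per the submitters' processing notes. No label names an aligner, a counter or a strand setting (steps not given in the sources used here), so reads of Col5a1 and Dpt cannot be told from those of genes on the opposite strand, which were at most 3.07 FPKM on average. All 6 columns were mapped to samples, and 0 library pairs held identical values.

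Multiplying FPKM by the exon length in GENCODE M21 gave whole fragments in every library, to within 0.01 fragment and a relative 1e-06, for 29933 genes (98.3%), Col5a1 not among them. The value of 1 fragment gave the library totals, and totals of this size leave counting error small except for Neu4 and Dpt. The log2(FPKM + 1) values of genes with at least 1 FPKM in at least 3 libraries were tested with limma 3.58.1 (R 4.3.3, trend, two-sided, Benjamini-Hochberg over all genes tested, threshold 0.05). On this scale the changes of low genes are understated. The script was tested on simulated data. A test for raw counts had been planned and was dropped because the values are FPKM. Neu4 was tested by exact permutation. Python 3.11.15, numpy 2.4.6, pandas 2.3.3, scipy 1.17.1 and matplotlib 3.10.9 were used.

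The 10 genes, the 19 lists (8 of related genes, 11 of markers) and the tests were chosen with earlier results of these data known. Of the listed genes, 1 was not matched. The rule for named genes took the 10 genes, Neu4, up to 4 passing genes of each related list or else the 2 with the highest mean, the 2 highest of each marker list, and the 5 most like the mean profile. Promoters are RefSeq's.

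Alternatives were pseudocounts of 0.1 and 0.01, a filter of 5 FPKM and none, median-ratio and quantile scaling, no trend, weights per library, a sex covariate, a replicate block, voom on recovered fragments, and leaving out each library.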

Additional observations from a re-analysis of the deposited data

How the results depend on the processing

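Over the alternatives, 157 of 169 fold changes of the 10 genes kept their sign and their side of the threshold. Another 6 passed it, and 6 turned sign, those of Col1a2 (0.061 with quantile normalization, 0.044 with sex as a covariate, and -0.080 to 0.059 leaving out a library, above 0 without knockout 5 or wild type 3) and Fmod (0.062 with the replicate block, and -0.091 to 0.020 leaving out a library, above 0 without knockout 2). The count of the 10 genes that passed was 0, but 1 with a filter of 5 FPKM or with library weights (Col5a1), 2 with voom (Col3a1 and Dpt), and 0 to 2 leaving out a library, with 2 only without knockout 5. Their median log2 fold change of -0.20 was -0.13 with quantile normalization and -0.14 with the replicate block. Of all tested genes 47 passed, against 15 with a pseudocount of 0.01, 103 with a filter of 5 FPKM, 19 with no filter, 19 with no trend, 104 with library weights, 24 with sex as a covariate, 22 with the replicate block, 389 with voom, and 12 to 105 leaving out a library. Of the related genes 2 passed, against 0 with a pseudocount of 0.01, no filter, no trend or the replicate block, 1 with quantile normalization or sex as a covariate, 3 with a filter of 5 FPKM or library weights, 13 with voom and 0 to 10 leaving out a library. The difference of Neu4, 0.0018 FPKM, was -0.0110 to 0.0158 leaving out a library, and below 0 without knockout 4, knockout 5 or wild type 3. The cause of these changes was not tested.

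Knockout and wild type share the replicate numbers 4 and 5. Deviations from the group means correlated at 0.14 and 0.15 in these pairs and at -0.13 to 0.11 in the others, and the libraries share only a number, so the replicate block is not a paired analysis by design.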

Other observations

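Decorin and lumican lie in a row of small leucine-rich proteoglycan genes on chromosome 10. Fibromodulin lies on chromosome 1, 129 kb from Optc, another such gene, and on the opposite strand. Epyc, epiphycan, in the chromosome 10 row, averaged 68.4 ± 3.60 FPKM in knockout and 63.9 ± 4.96 FPKM in wild type (SD, n = 3 each). Kera, keratocan, between Lum and Epyc, was at 0.921, 1.89 and 1.82 FPKM in knockout 2, 4 and 5, against 1.49, 1.33 and 7.16 FPKM in wild type 3, 4 and 5, so wild type 5 stood apart. Prelp, 2.30 kb from Optc on chromosome 1, averaged 23.5 ± 2.87 FPKM in knockout and 23.4 ± 1.74 FPKM in wild type. These genes were chosen for their position, and no test was made of the clusters.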
